A study of Mus musculus with 6 samples.

Results

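The citric acid cycle oxidizes acetyl groups in the mitochondrial matrix and passes their electrons to the respiratory chain. Cs, the citrate synthase, joins acetyl-CoA to oxaloacetate. Isocitrate is then oxidized by the NAD-linked enzyme built from Idh3a, Idh3b and Idh3g, and 2-oxoglutarate by the complex that contains Ogdh and Dld. Sucla2, the ATP-forming beta subunit of succinyl-CoA synthetase, Fh1, the fumarase, and Mdh2, the mitochondrial malate dehydrogenase, act in the later steps. Skeletal muscle relies on the cycle for sustained work, and oxidative fibres hold more of it than glycolytic fibres.

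These 9 genes were followed in gastrocnemius muscle of 3 young mice (13 weeks of age) and 3 aged mice (26 months of age), all male C57BL/6J with no genetic change or treatment named. RNA of each mouse was labelled with Cy3 and hybridized to 1 single-colour Agilent array. The genes were found by the RefSeq accession of each probe, which gave 12 of the 55681 probes on the array, 3 for Ogdh, 2 for Dld and 1 for each other gene, and 9 of the 20911 genes tested. Each of these probes was spotted once per array. All 12 were well above background on all 6 arrays and saturated on none, so no member was lost to the filter on dim probes. Values are log2 processed signal minus the 75th percentile of the array, so that 0 is the 75th percentile and 1 is a doubling. The age groups were tested against each other in limma, and p-values were adjusted over the whole table of genes.

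The arrays lay on 1 slide, and between 48.7% and 53.8% of probes were well above background, with the highest share in aged mouse 1. Row 1 of the slide held the 3 young mice and aged mouse 1, and row 2 held aged mice 2 and 3. The 8 muscle markers examined, among them Acta1, Ckm and Ttn, were well above background on all 6 arrays, although Mylpf was at 1.95 in young mouse 3 and between 4.52 and 5.20 in the other mice. In whole muscle, fewer cells of a type and less RNA per cell cannot be told apart.

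The mean of 8 of the 9 citric acid cycle genes was lower in aged mice, from 0.771-fold for Idh3a to 0.902-fold for Ogdh, and that of Idh3b was 1.05-fold, with the sign of Ogdh and of Idh3b depending on the setting as given for each below. For 5 genes, Cs, Idh3a, Sucla2, Fh1 and Dld, the groups did not overlap and the aged mice were the lower ones, and for none were the aged mice wholly above the young. Over all genes tested, the mean was lower in 56.9%, and the groups did not overlap in 21.8%, with the aged mice lower in 13.9% and higher in 7.92%. In limma none of the 9 passed (lowest adjusted p = 0.313), where 0.253% of all genes did (0.196% higher and 0.0574% lower in aged mice). Without adjustment 1 of the 9, Idh3a, had an unadjusted p under 0.05, as 14.4% of all genes did (8.37% with a lower mean in aged mice). The median log2 fold change was -0.28 over the 9 genes and -0.06 over all genes. The 95% interval of the log2 fold change lay within a 2-fold change either way for all 9 genes and included 0 for 8 of them.

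**Figure D1:**
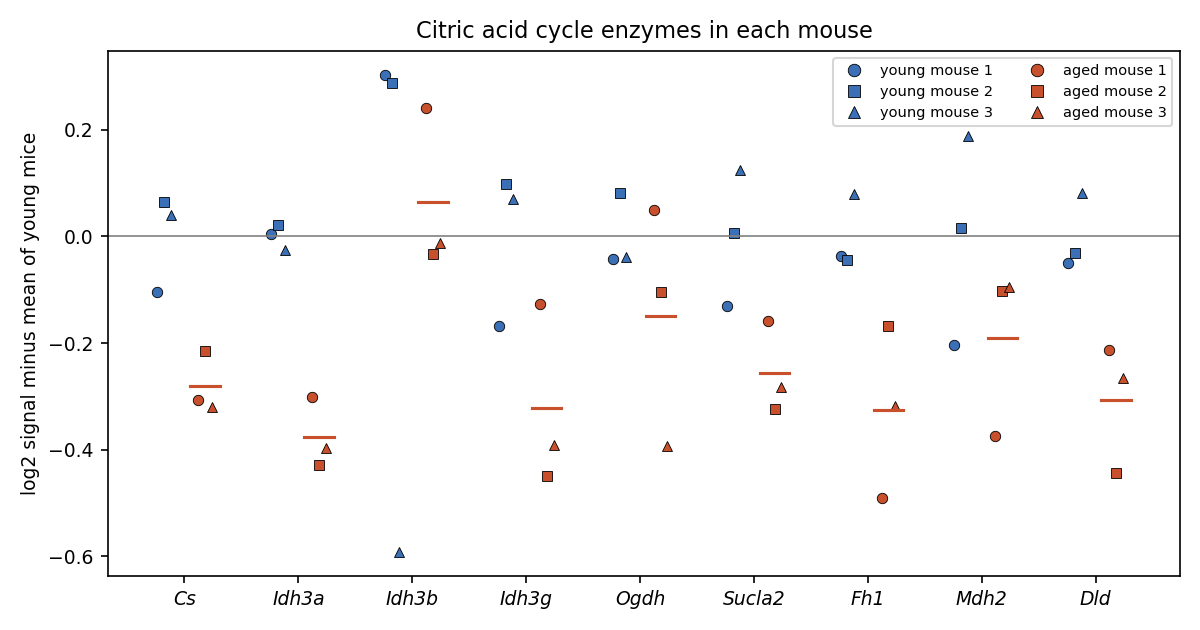
The log2 signal of each enzyme (y axis, centred on the 3 young mice) in young mice (blue) and aged mice (red), with 1 point per mouse and a red line at the mean of the aged mice. The aged points lie below all young points for Cs, Idh3a, Sucla2, Fh1 and Dld, and for Idh3b young mouse 3 lies below all other mice.

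Upstream sequence is shown for Idh3b, the enzyme gene that was not lower on average, and for Fh1, Sucla2 and Dld, which separated the groups, since in these 4 the 250 bases before the start of the gene overlap no other annotated gene. The sequences are from RefSeq (GRCm38.p6), 5′ to 3′ on the strand of the gene, and a promoter window was matched for 8 of the 9 members. Capitals mark a GC box (GGGCGG) or a CCAAT box (CCAAT), read on both strands, so that CCGCCC and ATTGG are the same boxes on the other strand.
Idh3b, chr2:130284452-130284701, minus strand: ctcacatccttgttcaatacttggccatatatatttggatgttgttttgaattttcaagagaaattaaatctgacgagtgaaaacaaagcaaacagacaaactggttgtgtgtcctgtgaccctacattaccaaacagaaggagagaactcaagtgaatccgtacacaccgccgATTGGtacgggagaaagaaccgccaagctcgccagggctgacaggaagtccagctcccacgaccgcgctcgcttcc
Fh1, chr1:175625636-175625885, minus strand: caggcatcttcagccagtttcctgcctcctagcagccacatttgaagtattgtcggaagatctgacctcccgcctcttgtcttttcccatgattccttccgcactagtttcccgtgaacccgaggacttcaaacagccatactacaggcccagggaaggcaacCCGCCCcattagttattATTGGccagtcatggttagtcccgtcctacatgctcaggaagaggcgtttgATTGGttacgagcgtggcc
Sucla2, chr14:73552536-73552785, plus strand: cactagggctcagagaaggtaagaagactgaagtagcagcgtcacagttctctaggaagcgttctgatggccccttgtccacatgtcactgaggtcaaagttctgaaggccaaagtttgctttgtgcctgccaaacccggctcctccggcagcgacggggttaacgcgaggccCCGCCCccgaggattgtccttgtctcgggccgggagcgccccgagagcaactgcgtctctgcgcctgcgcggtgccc
Dld, chr12:31351472-31351721, minus strand: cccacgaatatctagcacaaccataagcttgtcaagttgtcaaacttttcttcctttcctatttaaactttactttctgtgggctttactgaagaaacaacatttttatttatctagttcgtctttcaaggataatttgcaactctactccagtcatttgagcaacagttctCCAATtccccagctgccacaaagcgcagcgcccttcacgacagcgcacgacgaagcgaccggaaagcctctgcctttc

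The GC box was in the upstream window of 5 members (Cs, Ogdh, Sucla2, Fh1 and Mdh2) and in 32.7% of the 32851 windows of the table. The CCAAT box was in that of 5 members (Cs, Idh3b, Ogdh, Fh1 and Dld) and in 33.8% of windows. A member was counted when any of its windows held the letters, and Ogdh had 6 windows and Idh3a none. The shares are of single windows, so the counts and shares are not on the same footing. Idh3b, whose groups overlapped, and Dld, whose groups did not, each held 1 CCAAT box, 71 and 73 bases before the start. AAGGTCA, which estrogen-related receptors bind, nuclear receptors known to act on mitochondrial genes, was in no member's window and in 4.08% of all windows. Of the other letters searched, the ETS motif CCGGAAG (6.91% of windows) and the YY1 motif AAGATGGC (1.56%) were in the window of Idh3g, and the NRF1 core GCATGCGC (2.26%) and the E box CACGTG (6.02%) in that of Ogdh, which has 6 windows. All were read on both strands, and no motif searched contains another. A match is a description of the letters, and no match says only that they are not in this window.

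Cs, whose product catalyses the first step of the cycle and is widely used as a measure of mitochondrial content, was at 9.10, 9.27 and 9.24 in young mice 1 to 3 and at 8.90, 8.99 and 8.88 in aged mice 1 to 3. All aged mice were below all young mice, and the gap between the nearest mice of the groups was between young mouse 1 and aged mouse 2. The log2 fold change was -0.28 (standard error 0.15, adjusted p = 0.429 from limma), with 9.20 ± 0.09 (SD, n = 3) in young and 8.92 ± 0.06 (SD, n = 3) in aged mice. Over the 19 alternative settings, Cs kept its direction, between -0.43 and -0.13, and its adjusted p was at no point below 0.252.

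NAD-linked isocitrate dehydrogenase has 3 kinds of subunit, and a difference between them was not tested. Idh3a, the catalytic subunit, was at 7.53, 7.55 and 7.50 in young mice and at 7.23, 7.10 and 7.13 in aged mice. The young mice were closer to each other for Idh3a than for any other member (SD 0.02), and the aged mice were all lower. The log2 fold change was -0.38 with a standard error of 0.14 and a 95% interval of -0.71 to -0.04 (adjusted p = 0.313 from limma). It was the one farthest from 0 among the 9 genes and lay between -0.52 and -0.25 under the alternatives, with adjusted p from 0.184 to 0.628.

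Idh3g, a regulatory subunit, was at 8.43, 8.69 and 8.67 in young and at 8.47, 8.15 and 8.20 in aged mice. Aged mouse 1 was above young mouse 1, so the groups overlapped, and the log2 fold change was -0.32 (standard error 0.17, adjusted p = 0.435 from limma). Idh3b, the other regulatory subunit, was at 8.09, 8.08 and 7.20 in young and at 8.03, 7.75 and 7.77 in aged mice. Young mouse 3 was the lowest of all mice for Idh3b, and the spread of the young mice (SD 0.51) was the widest of any member in either group. The log2 fold change of Idh3b was 0.06 (standard error 0.27, adjusted p = 0.927 from limma), and it was -0.23 without young mouse 3, -0.024 without aged mouse 1 and -0.082 with median scaling. Without young mouse 3 the means of all 9 genes were lower in aged mice, as were those of 53.6% of all genes. Without aged mouse 1 the 9 were all lower too, with 54.1% of all genes.

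Other genes of the cycle were low on the array of young mouse 3 as well, which was seen after the values of Idh3b. Suclg1, the alpha subunit of succinyl-CoA synthetase, was at 7.33, 7.25 and 6.83 in young mice, and Suclg2, its GTP-forming beta subunit, at 1.86, 1.51 and 0.98. For both genes young mouse 3 was the lowest of the 6 mice. Sucla2, Fh1 and Dld did not share this, since young mouse 3 was the highest of the 6 mice for each of them. What set young mouse 3 apart was not tested.

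Ogdh, the subunit of the 2-oxoglutarate dehydrogenase complex that binds its substrate, was at 8.06, 8.18 and 8.06 in young and at 8.15, 7.997 and 7.71 in aged mice. Aged mouse 1 was within the range of the young mice and aged mouse 3 was the lowest. The log2 fold change was -0.15 (standard error 0.17, adjusted p = 0.717 from limma). Its sign was not stable, with 0.073 after normexp background correction, 0.050 with slide row as a block and 0.032 with the mean of its probes, and it was -0.026 after quantile normalization and -0.028 without aged mouse 3. Of the other Ogdh probes, one was lower in aged mice (log2 fold change -0.17, adjusted p = 0.702 in limma on probes) and one was higher (0.41, adjusted p = 0.509), the latter at 0.56, 0.61 and 0.71 in young and 0.59, 1.55 and 0.99 in aged mice. The probe that was higher was dimmer than the others and carries the same accession, so that the transcripts it detects cannot be told apart here.

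Dld, the flavoprotein that reoxidizes lipoamide and serves pyruvate dehydrogenase, 2-oxoglutarate dehydrogenase, the branched-chain 2-oxoacid complex and glycine cleavage, was at 5.42, 5.44 and 5.55 in young and at 5.26, 5.03 and 5.21 in aged mice. All aged mice were lower, and the log2 fold change was -0.31 (standard error 0.15, adjusted p = 0.412 from limma). The other Dld probe was lower on average too (-0.38, adjusted p = 0.636), but mostly in aged mouse 2, at 2.71, while aged mice 1 and 3 were at 3.94 and 3.65 and young mice between 3.55 and 3.98.

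Sucla2 was at 7.48, 7.62 and 7.74 in young and at 7.45, 7.29 and 7.33 in aged mice. The groups were barely apart, with young mouse 1 next above aged mouse 1, and the log2 fold change was -0.26 (standard error 0.16, adjusted p = 0.486 from limma). Fh1, which hydrates fumarate to malate, was at 6.57, 6.56 and 6.69 in young and at 6.12, 6.44 and 6.29 in aged mice, with the lowest value in aged mouse 1. Its log2 fold change was -0.32 (standard error 0.16, adjusted p = 0.407 from limma), and the direction held in all 19 alternatives, from -0.49 to -0.23. Mdh2, which regenerates oxaloacetate and also serves the malate-aspartate shuttle, was at 9.58, 9.80 and 9.97 in young and at 9.41, 9.68 and 9.69 in aged mice. The groups overlapped for Mdh2 because young mouse 1 was below aged mice 2 and 3, and the log2 fold change was -0.19 (standard error 0.18, adjusted p = 0.647 from limma). It was -0.096 without young mouse 3, -0.099 without aged mouse 1, -0.024 after quantile normalization and -0.37 with slide row as a block.

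In aged mouse 1, 7 of the 9 genes (all but Idh3b and Ogdh) were below the mean of the young mice. Fh1 was lowest (-0.49) and Idh3b highest (0.24) in this mouse. In aged mice 2 and 3 all 9 were below that mean, with Idh3g (-0.45) and Idh3a (-0.40) lowest. The count below it was 7 of 9 in young mouse 1 too, 2 in young mouse 2 and 3 in young mouse 3. Relative to the young mean, the 9 genes had a median deviation of -0.21, -0.22 and -0.32 in aged mice 1 to 3, against -0.05, 0.02 and 0.07 in young mice 1 to 3. Over the 6 arrays, the correlation between the log2 signals of 2 members was above 0 for 29 of the 36 pairs, with a median r of 0.59 and a highest r of 0.95, for Idh3g and Sucla2. The lowest r was -0.73, for Idh3b and Mdh2. These r describe 6 arrays that share their scaling and the difference between the groups.

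All 9 genes had bright probes, and bright probes as a whole were lower in aged mice at this scaling. Among the 2197 genes with a mean signal at or above that of Dld, the dimmest member, the mean was lower in 72.2% and all aged mice were below all young mice in 21.4%, with a median log2 fold change of -0.12. Among the 1103 genes whose mean was 6 to 8, which include 4 members, 70.8% were lower and 22.5% had all aged mice below all young mice. Among the 406 genes whose mean was above 8, which include 4 other members, these shares were 88.4% and 22.9%. The 406 genes had a median log2 fold change of -0.16. Their median deviation was -0.32, -0.03 and -0.10 in aged mice 1 to 3. The citric acid cycle genes were at the level of these bright genes or above it in aged mouse 1 and below it in aged mice 2 and 3. Quantile normalization removes differences in the distribution of signals between arrays. After it, 8 of the 9 genes were still lower on average, as were 55.5% of all genes. All aged mice were then below all young mice for 2 of the 9 in place of 5, and in 13.3% of all genes. The median log2 fold change of the 9 was -0.13 in place of -0.28. With slide row as a block, only aged mouse 1 informs the contrast. In that fit the median was -0.21, and 7 of the 9 genes were lower, as were 56.4% of all genes. The values within row 1 alone were the same. Row 2 held no young mouse, so for aged mice 2 and 3 the slide row and age cannot be told apart.

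**Figure D2:**
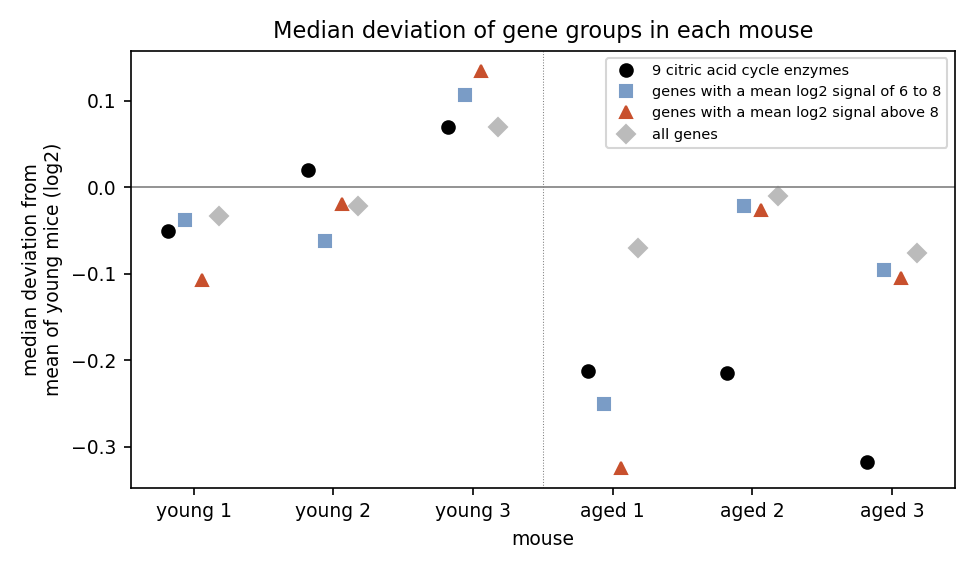
The median deviation from the young mean (y axis, log2) in each mouse (x axis) for the 9 citric acid cycle enzymes, genes with a mean log2 signal of 6 to 8, genes above 8 and all genes. In aged mouse 1 the enzymes (-0.21) lie near the genes of 6 to 8 (-0.25), and in aged mice 2 and 3 they lie below the other groups of genes.

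The 9 other genes of the cycle were all tested, and 7 were lower and 2 higher in aged mice, with a median log2 fold change of -0.21. The number lower was 6 after quantile normalization (median -0.077) and 5 with slide row as a block (median -0.091). None passed the threshold in limma, and 1, Sdhd (-0.38, adjusted p = 0.326), had an unadjusted p under 0.05. All aged mice were below all young mice for Sdhc and Sdhd, the membrane anchors of succinate dehydrogenase, and the groups overlapped for its catalytic subunits Sdha (-0.07) and Sdhb (-0.21). Idh2, the NADP-linked isocitrate dehydrogenase of mitochondria, had a log2 fold change of -0.45. It was highest in aged mouse 1 among the aged mice, at 8.27, which was close to young mouse 2 (8.28), with aged mice 2 and 3 at 7.46 and 7.18. Dlst, the core of the 2-oxoglutarate dehydrogenase complex, had a log2 fold change of -0.13. The succinyl-CoA synthetase genes that are not members were the 2 with a higher mean, Suclg1 at 0.03 and Suclg2 at 0.35, and young mouse 3 was the lowest mouse for both.

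**Figure D3:**
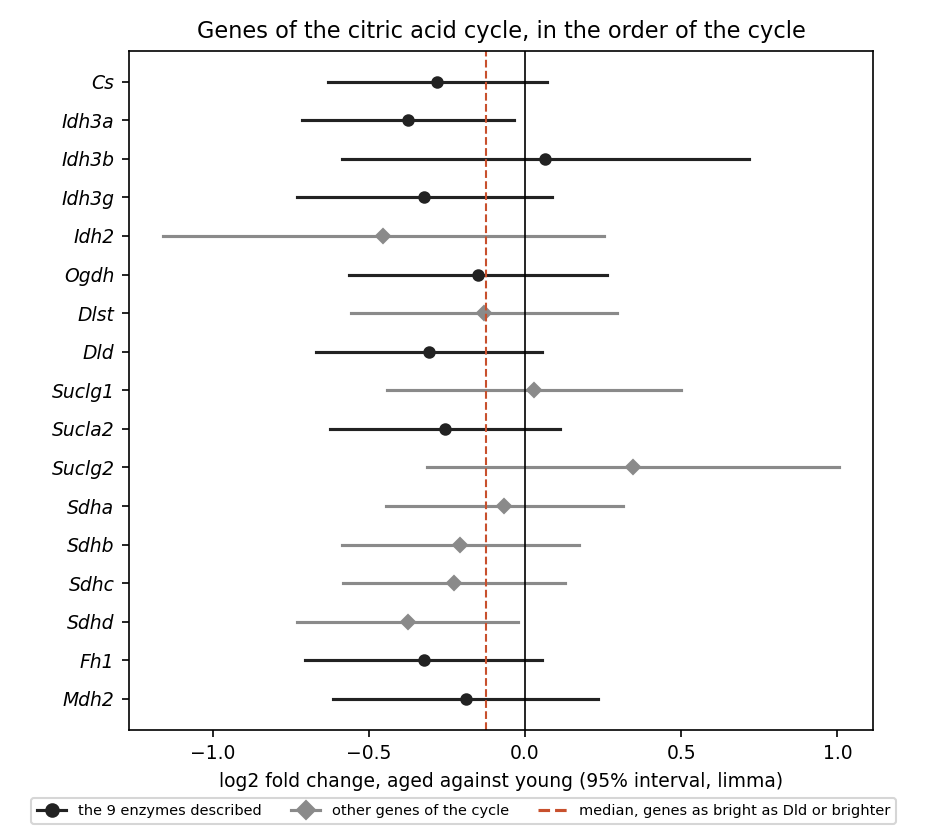
The log2 fold change of aged against young mice (x axis, point, with its 95% interval from limma) for the 9 enzymes described (black circles) and 8 of the 9 other genes of the cycle (grey diamonds), in the order of the cycle. The dashed line is the median of the genes as bright as Dld or brighter (-0.12), and the intervals of Idh3a and Sdhd are those that do not include 0.

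Genes that feed the cycle gave values of the same order. The 5 genes of pyruvate dehydrogenase and pyruvate carboxylase, which supply acetyl-CoA and oxaloacetate, were all lower on average (median log2 fold change -0.30), and none passed the threshold. Dlat, the acetyltransferase of the pyruvate dehydrogenase complex that shares Dld with the cycle, was at 4.96, 5.12 and 5.13 in young and at 4.30, 4.53 and 4.33 in aged mice. All aged mice were lower, with a log2 fold change of -0.68 (adjusted p = 0.152 from limma). Pdhb (-0.30) and Pdhx (-0.40) also separated the groups, while Pdha1 (-0.09) and Pcx (-0.06) did not. Of the other complexes that use Dld, 6 of 7 genes were tested, 3 of them higher and 3 lower, with a median of -0.04 and none past the threshold.

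Of the counterparts in the cytosol or with other cofactors, 7 of 8 genes were tested, 2 higher and 5 lower (median -0.22), and none passed the threshold. Mdh1, the cytosolic malate dehydrogenase, had a log2 fold change of -0.15, beside -0.19 for Mdh2. Acly, which cleaves citrate in the cytosol for lipid synthesis, had -0.58 (adjusted p = 0.308 from limma) and separated the groups, with young mice between 2.49 and 3.22 and aged mice between 2.25 and 2.42. Among 6 genes of glutamate entry and aminotransferases, 2 were higher and 4 lower (median -0.19), none past the threshold. Gpt2, a mitochondrial alanine aminotransferase, was highest at 0.67.

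Of 10 genes taken as a measure of mitochondrial abundance, such as the outer membrane channel Vdac1 and the respiratory subunits Cox4i1 and Uqcrc2, 9 were lower and 1 higher in aged mice, none past the threshold, and their median log2 fold change of -0.28 equalled that of the 9 citric acid cycle genes to 2 decimals. They ranged from -1.33 for Cycs, the electron carrier cytochrome c, and -0.58 for the channel Vdac2 to 0.11 for Tfam, which packages mitochondrial DNA. Cycs was at 0.399-fold (adjusted p = 0.287 from limma), but its groups overlapped, with aged mouse 1 (7.82) above young mouse 1 (7.65). The aged mice were all below the young mice for 4 of the 10 genes. In multiples of the 75th percentile, their summed level ran from 2163 to 2703 in young mice and from 1854 to 1981 in aged mice, and that of the 9 citric acid cycle genes from 2699 to 3005 in young and from 2438 to 2496 in aged mice. The groups did not overlap for either sum. Such a sum weighs the brightest genes most, which among the citric acid cycle genes were Mdh2 and Cs (young means 9.78 and 9.20). The groups overlapped for Mdh2 itself. Among all genes with a mean above 8, the mean was lower in aged mice in 88.4%.

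Genes of slow and fast fibres also had lower means in aged mice. The 4 slow fibre genes were all lower on average (median -0.59, from -0.66 for Myh7 to -0.19 for Tnnc1). Their summed level was 559 to 809 in young and 351 to 537 in aged mice on the same scale. These sums did not overlap, but of the 4 genes only Tnnt1 had all aged mice below all young mice. The 5 fast fibre genes tested, of 6 listed, were also lower on average (median -0.21), with sums of 2875 to 3549 in young and 2416 to 3027 in aged mice. Among the 5 fast fibre genes only Tnnt3 separated the groups. None of the 9 passed the threshold. Myh7 and the 5 fast fibre genes had a mean signal above 8, where 88.4% of all genes were lower in aged mice. The part of fibre type in the values of the citric acid cycle genes was not tested.

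Markers of other cells were read on the same scale. All 5 erythrocyte genes were lower on average in aged mice (median -1.20), none past the threshold, with sums of 591 to 830 in young and 264 to 420 in aged mice. Of the 5 Schwann cell genes, 4 were lower, with Prx past the threshold (-1.29, adjusted p = 0.0429 from limma), while Mbp, a myelin protein, was higher in all aged mice (1.33, adjusted p = 0.0525), and the sums of the list were 9.95 to 10.9 in young and 7.54 to 8.53 in aged mice. Of the macrophage markers, 5 of 6 were tested and 4 were higher (median 0.64), none past the threshold, with sums of 17.4 to 18.99 in young and 19.2 to 24.4 in aged mice. Of the fibroblast and tendon markers, Scx, a tendon transcription factor, was higher in all aged mice (1.35, adjusted p = 0.229 from limma) and the other 4 were lower on average. This list had a median of -0.72, adipocyte markers of -0.22 (4 of 5 tested lower) and endothelial markers of 0.05 (2 of 4 lower), with none past the threshold and sums that overlapped between the groups for the fibroblast and adipocyte lists but not for the endothelial list, which was 13.3 to 15.7 in young and 9.54 to 11.6 in aged mice. The part of these cells in the values of the citric acid cycle genes was not tested.

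The genes whose pattern was most like that of the 9 members were looked for among 12682 genes with a symbol that were well above background on all 6 arrays. The measure was Pearson's r over the 6 arrays with the mean of the centred log2 signals of the members, which was 0.07, 0.17 and 0.11 in young and -0.07, -0.13 and -0.16 in aged mice. Smad6 (r = 0.994), Fbxl7 (0.994), Myo1d (0.993), Itga6 (0.993) and Spag9 (0.992) ranked highest. With 6 arrays and this many genes, values near 1 arise readily, and none of the 5 passed the threshold between the groups. Their log2 fold changes ran from -0.89 for Myo1d to -0.24 for Spag9.

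The plot of fold changes by setting gives the range for each enzyme. Over the 19 alternatives, Cs, Idh3a, Idh3g, Sucla2, Fh1, Mdh2 and Dld kept a lower mean in aged mice in all, Idh3b kept its sign in 16 and Ogdh in 15, and no member passed the threshold in any. With a mean-variance trend in limma, 5 of the 9 genes had an unadjusted p under 0.05, as 15.1% of all genes did in that fit, and the lowest adjusted p was 0.184, for Idh3a.

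**Figure D4:**
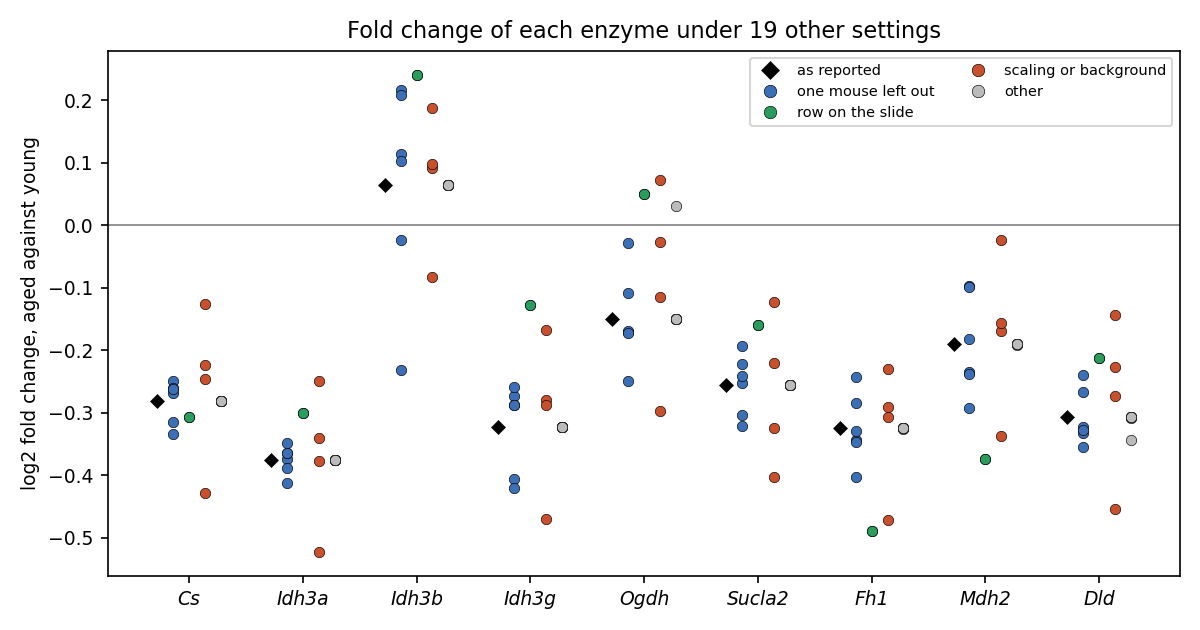
The log2 fold change of aged against young mice (y axis) for each enzyme (x axis) as reported (black diamond) and under 19 alternatives, coloured by kind. All points lie below 0 for 7 enzymes, and those of Idh3b and Ogdh lie on both sides of it.

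The small number of arrays sets the precision. By exact permutation of 3 against 3, a two-sided p cannot go below 0.1. The standard errors of the 9 log2 fold changes were between 0.14 and 0.27.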

How the data were processed

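The deposited scanner output was made by the authors with Feature Extraction (version 11.0.1.1 per the file headers, 9.5 per the labels). The deposited processed signal is an intensity from which background was subtracted and a spatial trend removed, with no scaling across arrays, and its median spot and background signals are raw intensities. No normalization or test of the arrays is given in the sources used here. Of 62976 spots, 59305 were not controls. Spots flagged as outliers were left out, log2 signals of spots of one probe were averaged, and the 75th percentile over the 55681 probes of the array was subtracted. Accessions were matched without version to RefSeq (GRCm38.p6), which named 28331 probes. The array was designed on mm9, so no probe position is given. A probe was kept when well above background on at least 3 of 6 arrays. Where a gene had several such probes, the brightest on average stood for it. This left 20911 genes, tested in limma 3.58.1 (R 4.3.3) by lmFit and eBayes with an intercept and age, Benjamini-Hochberg adjustment and a threshold of 0.05. The fit was also tested, after it was run, on simulated data drawn from the means and SDs of the genes tested. Of 50 genes changed by 1 log2 unit 14 passed the threshold, of 50 changed by 2 units 36, and of 50 changed by 3 units 45. Among the unchanged genes 4 passed. Changes as small as those of the 9 members were not simulated. The members and lists were chosen with earlier results of these data known. The genes named are the 9 members, genes of the lists and the 5 genes most like the members' mean. The alternatives were normexp (offset 50) on the median signal, since a mean signal was not used here, quantile normalization, scaling to the median or to detected probes, 2 other filters, the mean of all probes, flagged spots kept, a variance trend, the slide row, the replicate number, the series matrix and each mouse left out. Single values of some genes of the lists are not reported here.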

Additional observations from a re-analysis of the deposited data

How the results depend on the processing

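No member passed the threshold under any alternative. Signs that turned were those of Ogdh (0.073 after normexp, 0.032 with the mean over its probes, 0.050 with slide row as a block and in row 1 alone) and of Idh3b (-0.082 with median scaling, and between -0.23 and 0.22 when 1 mouse was left out). The median log2 fold change of the members (-0.28) was -0.13 after quantile normalization, -0.43 with median scaling, which moved the median of all genes from -0.06 to -0.21, and -0.21 with the row as a block or row 1 alone. That of the other cycle genes (-0.21) was -0.077, -0.35 and -0.091 in these settings, and -0.29 when probes were averaged. With median scaling all 9 members were lower, as were 71.2% of all genes. For 7 of the 9 all aged mice were below all young mice, as in 21.3% of all genes. Calls over all genes (53) came to 8 when dim probes were kept, with 36710 genes tested, 35 when all 6 arrays had to be above background, 0 in row 1 alone, where 1 aged mouse is assumed to vary like the others, and between 1 (without aged mouse 3) and 201 (without aged mouse 1) when 1 mouse was left out. It was 9, 8 and 8 without young mice 1 to 3 and 9 without aged mouse 2. With the replicate block it was 5, and the members' median stayed at -0.28. The numbers do not pair the mice (correlations of deviations -0.06, -0.27 and 0.03, and 0 of 6 mice correlated best with their own number). The series matrix held the same values. The cause of these shifts was not tested beyond what the settings themselves change.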
